A study of Mus musculus with 6 samples.

Results

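The unfolded protein response and the integrated stress response are described here through 37 genes. The cells were mouse lung cultures, selected as endothelial, that carried or lacked the protease gene Zmpste24. The genes were chosen by symbol from a table of 53735 genes, as endoplasmic reticulum chaperone genes and genes of the ATF4 pathway. All 37 were found, and all passed the minimum mean of 10 normalized counts that left 15229 genes for testing. They were divided by known role into an endoplasmic reticulum arm of 18 genes and an ATF4 arm of 19 genes.

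The endoplasmic reticulum folds secreted and membrane proteins, and endothelial cells secrete some of the matrix and clotting protein of the vessel wall. When unfolded protein builds up there, the sensors IRE1, PERK and ATF6 raise the expression of chaperones, disulfide isomerases and degradation factors. PERK is also one of the kinases that phosphorylate the initiation factor eIF2, as GCN2 does when amino acids run short. General translation then falls while the transcription factor ATF4 is made, and ATF4 induces genes for amino acid uptake and synthesis, tRNA charging and, under lasting stress, cell death.

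Zmpste24 encodes the metalloprotease that matures prelamin A. The wild type group had 2 libraries and the Zmpste24 knockout group had 4, all from untreated, unpassaged cells that were selected with CD31 and ICAM2 beads and grown to confluence. Strain, age and the deleted part of the gene are not given in the labels, which speak of 2 mouse cohorts without assigning libraries to them. The labels tie no library to an animal. What the p-values measure is therefore the spread among 6 libraries, part of which may be technical. Libraries are named by genotype and title number. All levels are the authors' normalized counts, which are reads divided by a scaling factor for each library. Where a gene has 6 values, the first 2 are wild type 1 and 2 and the last 4 are knockout 1 to 4.

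Depth ran from 32699024 to 45613685 reads. The libraries fell into 2 sets, wild type 1 with knockout 1 and the remaining 4: the correlation of log2 values across genes was 0.978 to 0.990 within these sets and 0.908 to 0.935 between them. The labels name no batch that matches this split, which was taken from the values. Summed counts of 10 endothelial markers were 176675 in wild type 1 and 103033 in knockout 1, against 37972 to 61294 in the other 4 libraries, where the markers remained present. Summed counts of 10 macrophage markers were 1432 to 1685 in that pair and 27757 to 45103 in the other 4. Contractile and mesothelial markers were likewise split. The sum of 7 smooth muscle markers was 215620 to 235871 in the pair and 66932 to 126720 elsewhere, and that of 6 mesothelial markers 35624 to 79828 and 9762 to 19107. For 6 lymphatic markers the sum was 54665 to 76205 and 23983 to 54820, so the 2 sets overlapped. By genotype it was 54820 to 76205 in wild type and 23983 to 54665 in knockout libraries. The median log2 difference of these markers was -0.50 in knockout 1 against wild type 1. In knockout 2, 3 and 4 against wild type 2 it was -1.11, -1.41 and -1.53. The sum of 8 fibroblast markers was 406143 to 480110 over all 6 libraries and lay above the endothelial sum in each. Levels of either arm therefore cannot be assigned to endothelial cells alone. The median log2 difference of the fibroblast markers was 1.35 from wild type 1 to 2. From knockout 1 to the mean of knockout 2, 3 and 4 it was 0.63. The 7 epithelial markers summed to 671 to 1150. Of the 4 epithelial markers tested, 2 were lower in the pair than elsewhere and 0 higher. Their median log2 difference was 2.11 from wild type 1 to 2. From knockout 1 to the mean of knockout 2, 3 and 4 it was 3.29. No gene of these lists was at 0 in every library, while the epithelial markers Epcam, Scgb1a1 and Foxj1 had means under 10. In bulk RNA, fewer cells of a type and less RNA per cell cannot be told apart. The part of these markers in the results that follow was not tested. Zmpste24 itself was counted at 5503 and 4148 in wild type 1 and 2 and at 5079, 3764, 3599 and 3720 in knockout 1 to 4; without the deleted part, these values do not check the labels.

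Per kilobase of exon, Calr was the most abundant of the 36 genes with a single gene model, at 12720 ± 4510 normalized counts per kilobase (SD, n = 6 libraries). Hspa5 followed at 9696 ± 1012 and Hsp90b1 at 9546 ± 2083, and these 2 neighbours in the order lay within each other's spread. Atf4 was the highest of its arm at 6650 ± 1913 normalized counts per kilobase, above the lectin chaperone gene Canx at 5214 ± 772 by less than its own SD. The sensor genes stood near the bottom of the order, with Ern1 at 472 ± 55.1 and Eif2ak3 at 261 ± 73.7 normalized counts per kilobase. Only Atf3, at 226 ± 66.6, and Fgf21, at 81.6 ± 81.1, were lower among the 36 genes.

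Within each genotype, the 2 arms lay in opposite directions. In the ATF4 arm, 18 of 19 genes were lower in both wild type 1 and knockout 1 than in any of the other 4 libraries, a pattern held by 32.7% of all genes tested. In the endoplasmic reticulum arm, 13 of 18 genes were higher in both of these libraries than in any other, against 30.7% of all genes. Each arm also held genes of the opposite pattern, which were Xbp1 and Herpud1 in the endoplasmic reticulum arm and Eif2ak3 in the ATF4 arm. Dnajb9, Dnajc3 and Ern1 had neither pattern. Fgf21, among the 18, had 0 reads in wild type 1 and 1 in knockout 1. It passed the minimum mean only through the other 4 libraries, where it was high. Because the split was seen in the values, these counts are given without a test.

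**Figure D1:**
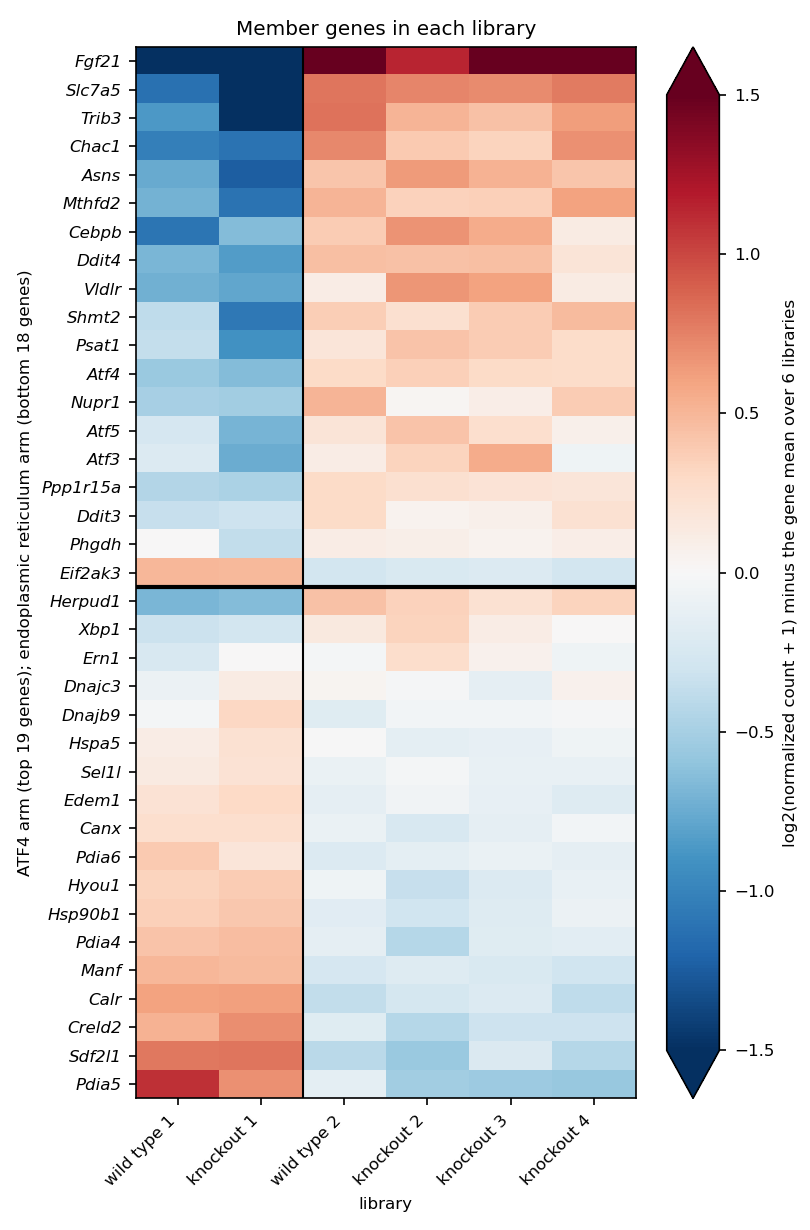
Each row is a member gene and each column a library, with colour showing log2(normalized count + 1) minus the gene's mean over 6 libraries. Wild type 1 and knockout 1 are low in 18 of the 19 ATF4 arm genes and high in 13 of the 18 endoplasmic reticulum arm genes.

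Summed over the endoplasmic reticulum arm, normalized counts were 263963 in wild type 1 and 270595 in knockout 1, against 198550 in wild type 2 and 191791, 195944 and 198191 in knockout 2, 3 and 4. For the ATF4 arm the order was turned, with 71174 and 57435 in wild type 1 and knockout 1, 130762 in wild type 2, and 134916, 130896 and 128293 in knockout 2, 3 and 4. The sum over all 37 genes hid this, since it lay between 326484 and 335137 in all 6 libraries. From wild type 1 to wild type 2 the median log2 difference was -0.37 over the endoplasmic reticulum arm and 0.85 over the ATF4 arm, beside 0.02 over all genes tested. From knockout 1 to the mean of knockout 2, 3 and 4, the medians were -0.41 and 1.20, beside 0.02. Log2 differences are on the scale log2(normalized count + 1). Under TMM scaling, another way to equalize libraries, the first pair of medians was -0.36 and 0.87 and the second -0.41 and 1.20.

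Start-site windows of the member genes were searched for 4 short motifs with RefSeq sequence of GRCm38.p6, from 250 bases before to 50 bases after each start. A window was found for 34 members, 16 in the endoplasmic reticulum arm and 18 in the ATF4 arm, and none for Hyou1, Manf and Slc7a5. The endoplasmic reticulum stress element, searched on both strands as CCAAT, any 9 bases and CCACG, was in 39 of 32851 windows of all genes (0.119%). It was in 7 of the 16 endoplasmic reticulum arm genes (Hspa5, Dnajc3, Pdia6, Hsp90b1, Creld2, Calr and Canx) and in 0 of the 18 ATF4 arm genes. These 7 promoters are shown in part. Of the 7 genes 6, all but Dnajc3, were high in wild type 1 and knockout 1, beside 13 of the 18 genes of the whole arm. Each line runs 5′ to 3′ on the gene's strand, with the match in capitals; a match that lies on the other strand begins with CGTGG.
Hspa5 (chr2:34772020-34772048, plus strand): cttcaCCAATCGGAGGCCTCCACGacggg
Calr (chr8:84847063-84847105, minus strand): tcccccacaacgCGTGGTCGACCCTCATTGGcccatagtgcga
Hsp90b1 (chr10:86705626-86705668, minus strand): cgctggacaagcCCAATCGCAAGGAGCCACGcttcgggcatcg
Hsp90b1 (chr10:86705521-86705563, minus strand): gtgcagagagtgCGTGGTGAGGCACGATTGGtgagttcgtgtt
Canx (chr11:50325788-50325830, minus strand): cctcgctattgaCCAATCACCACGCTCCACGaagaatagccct
Pdia6 (chr12:17266479-17266521, plus strand): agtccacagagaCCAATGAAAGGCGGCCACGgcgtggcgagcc
Creld2 (chr15:88819508-88819550, plus strand): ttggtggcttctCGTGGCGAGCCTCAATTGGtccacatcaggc
Dnajc3 (chr14:118937815-118937857, plus strand): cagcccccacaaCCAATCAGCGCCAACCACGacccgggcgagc

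The Hspa5 match lay at -65 to -47 from the RefSeq start, inside an exon of a GENCODE M21 transcript that begins further upstream, and the others lay outside annotated exons. A second form of the element, ATTGG, any 1 base and CCACG, was in 12 windows (0.0365%), of which 1 was that of Herpud1. The XBP1-type motif TGACGTGG, whose other strand shares CCACG with the first 2 motifs, was in 222 windows (0.676%) and in 0 member genes. The core of the ATF4 composite element, TGATGNAA with N for any base, was in 1304 windows (3.97%). It was in 7 of the 18 ATF4 arm genes (Atf3, Trib3, Chac1, Asns, Vldlr, Nupr1 and Fgf21) and, in the endoplasmic reticulum arm, in Herpud1 alone. The matches before the start are shown. All of these genes were low in wild type 1 and knockout 1, but so were 18 of the 19 ATF4 arm genes, with or without a match. TTGCATCA is TGATGCAA read from the other strand.
Chac1 (chr2:119351037-119351068, plus strand): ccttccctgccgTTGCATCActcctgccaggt
Atf3 (chr1:191183424-191183455, minus strand): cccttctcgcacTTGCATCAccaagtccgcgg
Fgf21 (chr7:45615610-45615641, minus strand): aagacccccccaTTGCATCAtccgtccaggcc
Asns (chr6:7693220-7693237, minus strand): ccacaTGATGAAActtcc
Nupr1 (chr7:126625568-126625585, minus strand): ccagaTTGCATCAgacag
Vldlr (chr19:27216815-27216832, plus strand): aatagTTGCATCAgcgct
Herpud1 (chr8:94386307-94386397, plus strand): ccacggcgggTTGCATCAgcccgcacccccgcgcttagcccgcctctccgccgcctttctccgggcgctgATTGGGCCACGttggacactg

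Herpud1 was thus the one member whose window held both kinds of match, at -112 to -105 and at -52 to -42 from the start. The matches of Asns, Nupr1 and Vldlr lay in exons of GENCODE M21 transcripts, and that of Trib3 lay after the start and is not shown. These are matches of letters, given as a description of the windows.

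Among the sensors, Ern1 and Eif2ak3 behaved differently from each other. Ern1 (chr11:106394650-106487852, minus strand, GENCODE M21 on GRCm38, as for the genes that follow) encodes IRE1, the kinase and nuclease that splices Xbp1 RNA. It was counted at 3243 and 3754 in wild type 1 and 2 and at 3869, 4610, 4018 and 3672 in knockout 1 to 4. Its lowest value was in wild type 1 and the groups overlapped at wild type 2 and knockout 4. Eif2ak3 (chr6:70844515-70905245, plus strand) encodes PERK. It was counted at 2151 and 1262 in wild type 1 and 2 and at 2137, 1303, 1320 and 1258 in knockout 1 to 4. The kinase gene was therefore high in the libraries in which the ATF4 targets were low, with a log2 difference of -0.77 from wild type 1 to 2 and of -0.72 from knockout 1 to the mean of knockout 2, 3 and 4. Its exons overlap those of Gm43292 on the other strand by 485 bases, so its count is uncertain.

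Xbp1 (chr11:5520659-5525893, plus strand), the transcription factor downstream of IRE1, was counted at 6983 and 9711 in wild type 1 and 2 and at 7269, 11020, 9450 and 8822 in knockout 1 to 4. Gene-level counts do not separate its spliced and unspliced forms. Herpud1 (chr8:94386438-94395377, plus strand), a membrane protein of the degradation machinery, was counted at 2282 and 5004 in wild type 1 and 2 and at 2339, 4659, 4296 and 4638 in knockout 1 to 4. Both genes were lowest in wild type 1 and knockout 1, as the ATF4 targets were, and the genotypes overlapped for both. Herpud1 differed by 1.13 (log2) from wild type 1 to 2 and by 0.95 from knockout 1 to the other knockout libraries.

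The luminal chaperones were high in wild type 1 and knockout 1, to different degrees. Hspa5 (chr2:34771970-34777547, plus strand) encodes BiP, the main luminal chaperone and the repressor of the sensors. It was counted at 44052 and 40545 in wild type 1 and 2 and at 48021, 36977, 37446 and 38994 in knockout 1 to 4, so wild type 2 lay between the high pair and the other knockout libraries. Hsp90b1 (chr10:86690209-86705509, minus strand), which encodes the chaperone GRP94, was counted at 48372 and 33486 in wild type 1 and 2 and at 49895, 30694, 32961 and 35541 in knockout 1 to 4. Calr (chr8:84841850-84846934, minus strand), the calcium-binding lectin chaperone, had 53236 and 26942 in wild type 1 and 2, and 53388, 29024, 30398 and 26808 in knockout 1 to 4. The 2 high Calr libraries thus stood apart from the 4 low ones, with a log2 difference of -0.98 within wild type and -0.90 within knockout. Hspa5 differed by -0.12 and -0.35 in the same comparisons. Exons of Hsp90b1 overlap those of the pseudogene 1810014B01Rik on the other strand by 415 bases, which leaves its count uncertain.

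Canx, the membrane-bound partner of calreticulin, was counted at 28958 and 22627 in wild type 1 and 2 and at 28997, 20605, 22046 and 23577 in knockout 1 to 4. Hyou1, a nucleotide exchange factor for BiP, had 9854 and 7513, and 10208, 6158, 6796 and 7258 in the same order. Dnajc3, a J-domain co-chaperone, had 7207 and 7904, and 8376, 7575, 7007 and 8027. Canx and Hyou1 were highest in wild type 1 and knockout 1, whereas Dnajc3 was lowest in knockout 3 and next lowest in wild type 1. Dnajb9 (chr12:44205559-44210326, minus strand), a J-domain protein that holds BiP on IRE1, was counted at 1487 and 1338 in wild type 1 and 2 and at 1876, 1471, 1480 and 1500 in knockout 1 to 4. Its single high library was knockout 1, and wild type 1 lay among the other knockout libraries.

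Small luminal and secreted cofactors showed the same split. Sdf2l1 (chr16:17130138-17132383, minus strand), a partner of the J-domain co-chaperones, was counted at 932 and 404 in wild type 1 and 2 and at 938, 366, 463 and 400 in knockout 1 to 4. Creld2, which encodes a secreted stress-inducible protein, had 1802 and 1107, and 2040, 933, 1013 and 1006. Manf, a secreted stress factor that binds BiP, had 5764 and 3410, and 5653, 3545, 3482 and 3308. All 3 genes were high in wild type 1 and knockout 1 and overlapped between genotypes. Sdf2l1 differed by -1.20 (log2) from wild type 1 to 2 and by -1.20 from knockout 1 to the other knockout libraries.

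The disulfide isomerase genes were also high in wild type 1 and knockout 1, with the other 4 libraries in differing order. Pdia4 was counted at 11772 and 8021 in wild type 1 and 2 and at 12134, 6539, 7746 and 7891 in knockout 1 to 4. Pdia6, another isomerase of the lumen, had 17964 and 11862, and 15542, 12349, 12810 and 12474. Pdia5 (chr16:35397312-35490873, minus strand), an isomerase linked to ATF6 activation, had 3860 and 1627, and 2912, 1259, 1242 and 1219. Pdia5 was the one gene of the 3 that was lower in each knockout library than in the wild type library of its set. It differed by -1.25 (log2) from wild type 1 to 2 and by -1.23 from knockout 1 to the other knockout libraries, and Pdia5 and Sdf2l1 were the 2 of 18 genes at least 2-fold lower in both comparisons, a pattern of 4.98% of all genes.

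Of the degradation genes, Sel1l, the adaptor of the membrane ubiquitin ligase HRD1, was counted at 9359 and 7947 in wild type 1 and 2 and at 9889, 8333, 7883 and 7906 in knockout 1 to 4. Edem1, a mannosidase-like protein that marks misfolded glycoproteins, had 6837 and 5349, and 7249, 5674, 5407 and 5150. Both genes were highest in wild type 1 and knockout 1, with log2 differences between libraries of one genotype that were smaller than those of Calr and Sdf2l1.

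In the ATF4 arm, the transcription factors came first. Atf4 (chr15:80255184-80257541, plus strand) was counted at 10193 and 18397 in wild type 1 and 2 and at 9578, 19349, 18299 and 18268 in knockout 1 to 4. Atf5, a related factor of the mitochondrial stress response, had 6904 and 9400, and 5076, 11088, 9819 and 8661. The values of both were low in wild type 1 and knockout 1, and wild type 2 lay within the range of knockout 2, 3 and 4. The Atf4 log2 difference was 0.85 from wild type 1 to 2 and 0.96 from knockout 1 to the other knockout libraries.

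Ddit3, which encodes the death-associated factor CHOP, was counted at 1343 and 2084 in wild type 1 and 2 and at 1377, 1768, 1802 and 1993 in knockout 1 to 4. Atf3, a stress-induced repressor, had 406 and 506, and 278, 591, 687 and 447, which placed its knockout 4 value between the wild type values. Cebpb, a partner of ATF4 and CHOP, had 1280 and 3542, and 1735, 4358, 4023 and 2978. Each of these 3 genes was lowest in wild type 1 and knockout 1. The exons of Cebpb overlap those of Tmem189 on the other strand by 312 bases, and those of Ddit3 overlap Mars by 68 bases. No source used here says whether counting used the strand, so these values may include reads of the neighbour.

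Setting aside Fgf21, which had a count of 0, the widest differences between libraries in this arm were those of Slc7a5, Trib3 and Chac1 within wild type. Slc7a5 (chr8:121881150-121907694, minus strand), the large neutral amino acid transporter, was counted at 4054 and 15369 in wild type 1 and 2 and at 2384, 14649, 14488 and 15143 in knockout 1 to 4. The 4 high values lay within 14488 to 15369 across both genotypes, and the 2 low ones were 4054 and 2384. Its log2 difference was 1.92 from wild type 1 to 2 and 2.63 from knockout 1 to the other knockout libraries. Trib3 (chr2:152337422-152344032, minus strand), a pseudokinase that restrains ATF4, had 1572 and 5052, and 989, 4090, 3868 and 4415. Chac1 (chr2:119351229-119354381, plus strand), which degrades glutathione, had 767 and 2581, and 724, 2048, 1979 and 2516. Trib3 and Chac1 were both highest in wild type 2, and the difference from wild type 1 to 2 was 1.68 (log2) for Trib3 and 1.75 for Chac1.

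Asns (chr6:7675169-7693254, minus strand), asparagine synthetase, was counted at 5616 and 12607 in wild type 1 and 2 and at 4004, 14711, 13603 and 12628 in knockout 1 to 4. Psat1, an enzyme of serine synthesis, had 8184 and 11843, and 5561, 14071, 13599 and 12611. Phgdh, the first enzyme of that pathway, had 8376 and 9034, and 6472, 8858, 8655 and 8923. Asns and Psat1 had all of knockout 2, 3 and 4 above wild type 2 and knockout 1 below wild type 1, so the sign of the genotype difference turned between the sets. Phgdh varied least of the 3. It is an uncertain count, because 9 annotated pseudogenes match its transcript at 95.3% to 98.7% identity.

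The mitochondrial one-carbon enzymes were also low in wild type 1 and knockout 1. Shmt2, which splits serine, was counted at 5230 and 8808 in wild type 1 and 2 and at 3254, 8095, 8869 and 9460 in knockout 1 to 4. Mthfd2, the next enzyme, had 3000 and 6972, and 2265, 6205, 6271 and 7441. Both were lowest in knockout 1 and overlapped between genotypes. Mthfd2 differed by 1.22 (log2) within wild type and by 1.55 within knockout.

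Among the remaining stress targets, Ppp1r15a, which encodes the phosphatase subunit GADD34 that reverses eIF2 phosphorylation, was counted at 2281 and 3794 in wild type 1 and 2 and at 2228, 3665, 3575 and 3527 in knockout 1 to 4. Ddit4, an inhibitor of mTORC1 signalling, had 2338 and 5132, and 2096, 5087, 5125 and 4282. Nupr1, a stress-induced chromatin protein, had 3888 and 7820, and 3819, 5582, 5883 and 7115. In all 3 genes, wild type 2 was the highest library and knockout 1 the lowest. Vldlr, a lipoprotein receptor gene induced by ATF4, had 3588 and 6386, and 3456, 9344, 8963 and 6463, with its highest values in knockout 2 and 3. Fgf21 (chr7:45613886-45615490, minus strand), a stress hormone gene, had 0 reads in wild type 1 and 1 read in knockout 1. It had 152 reads in wild type 2, and 59, 82 and 164 in knockout 2, 3 and 4. No fold is given for Fgf21 because of the count of 0.

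At least 2-fold higher values in wild type 2 than in wild type 1, and in each of knockout 2, 3 and 4 than in knockout 1, were found for 7 of the 19 ATF4 arm genes, which were Trib3, Chac1, Asns, Mthfd2, Slc7a5, Ddit4 and Fgf21. The share among all genes tested was 5.66%. Fgf21 is counted here with 0 reads in wild type 1 and 1 in knockout 1, so its size rests on the 1 added before log2. It passed the minimum mean only through the libraries in which it was high. No endoplasmic reticulum arm gene passed this size in that direction, and Herpud1 missed it in knockout 2, 3 and 4.

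**Figure D2:**
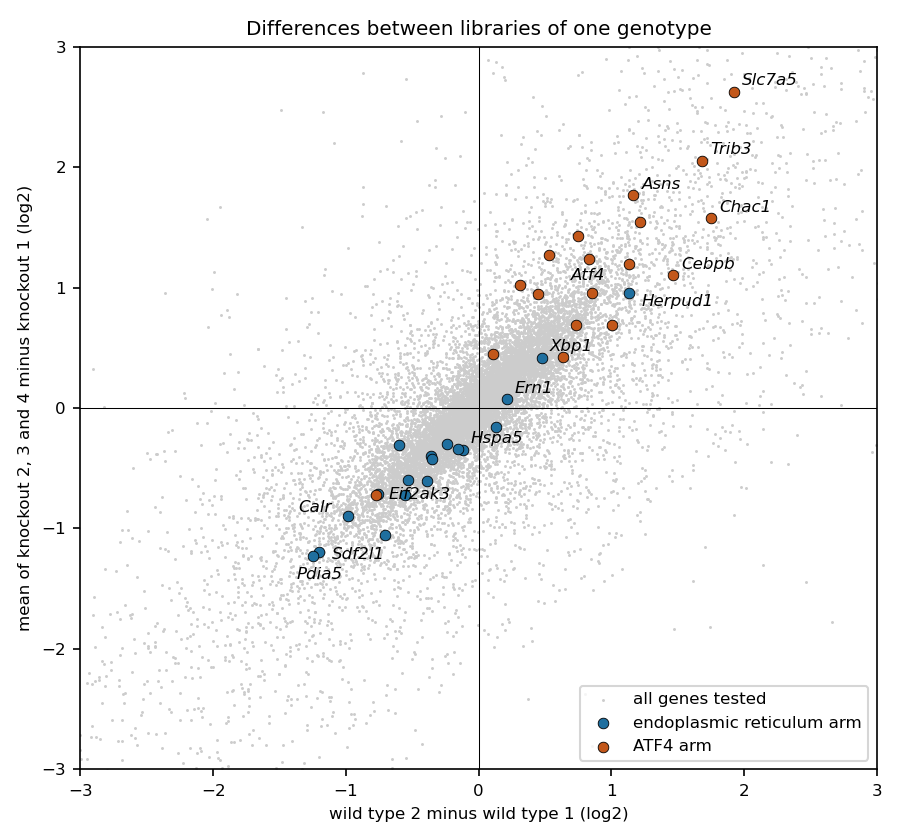
Each point is a gene, with the log2 difference from wild type 1 to wild type 2 on the horizontal axis and that from knockout 1 to the mean of knockout 2, 3 and 4 on the vertical axis; grey points are the genes tested that fall within the axes, and Fgf21, with a count of 0, is not drawn. Slc7a5, at 1.92 and 2.63, lies farthest to the upper right of the members drawn, and Pdia5, at -1.25 and -1.23, farthest to the lower left.

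**Figure D3:**
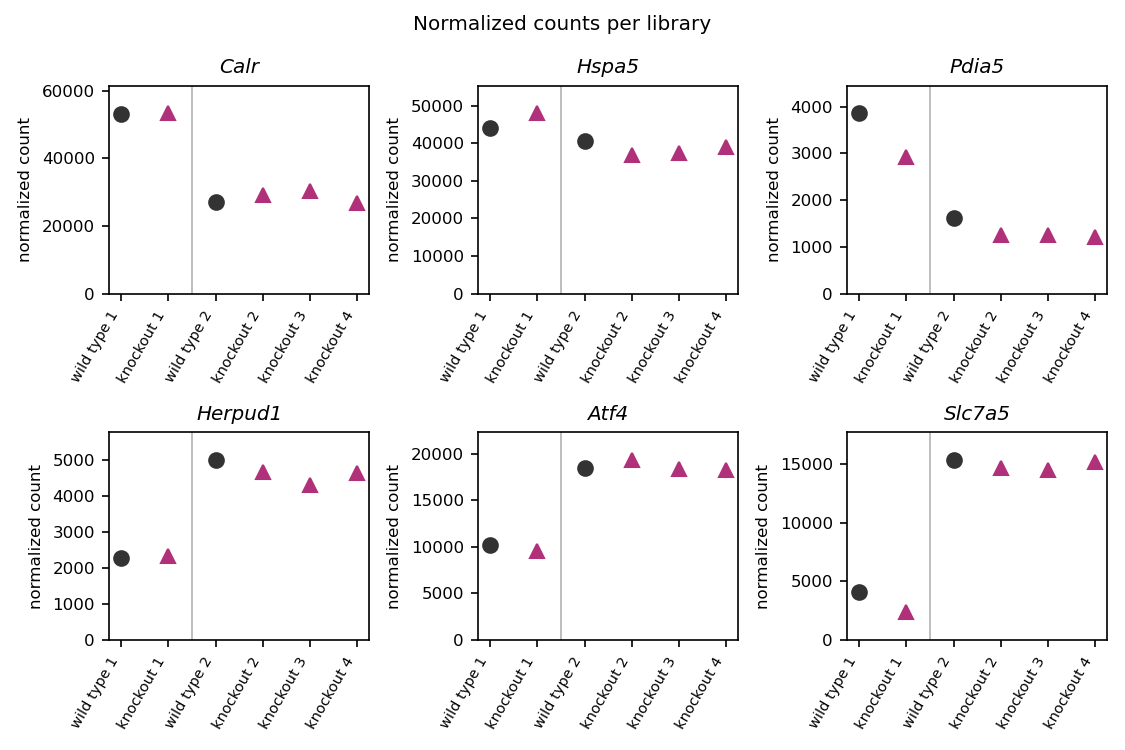
Normalized counts per library are drawn for single member genes on axes that start at 0. Wild type 1 and knockout 1 stand to the left of the grey line and the other 4 libraries to the right. In the Slc7a5 panel wild type 1 (4054) and knockout 1 (2384) lie below the other 4 libraries (14488 to 15369), and in the Calr panel they lie above them.

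The genotype comparison asked whether Zmpste24 loss changed these genes. No member passed: limma called 0 of 37 at an adjusted p under 0.05, where it called 1 of the 15229 genes (0.00657%). At an unadjusted p under 0.05 limma took 0 of 37 members, against 0.939% of all genes. By edgeR 0 members were called, with 0.00657% of genes called, and by DESeq2 0, with 0.046% called. All limma adjusted p-values of the members were 1.00, so no gene of either arm, from Hspa5 to Fgf21, stood out by genotype beyond the spread of the libraries. For none of the 37 did the genotype groups separate, a pattern that 4.68% of all genes had. The median log2 difference, knockout minus wild type, was -0.13 over the endoplasmic reticulum arm and 0.13 over the ATF4 arm, beside 0.00 over all genes. Of the members, 13 of 18 and 3 of 19 were below 0, against 49.8% of all genes. The pair of wild type 1 and knockout 1 held 1 of the 2 wild type libraries but 1 of the 4 knockout libraries. Genotype and library set are therefore not separated in this fit. The 13 endoplasmic reticulum arm genes below 0 were the same 13 that were higher in that pair than in any other library. Without wild type 1, the medians became 0.09 and -0.28, without wild type 2 -0.35 and 0.63, and without knockout 1 -0.22 and 0.45. Without knockout 2, 3 or 4 in turn they ran from -0.09 to -0.05 and from 0.03 to 0.04.

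The mean Atf4 level was 14295 ± 5801 over wild type libraries (SD, n = 2) and 16374 ± 4558 over knockout libraries (SD, n = 4). Its log2 difference was 0.20 ± 0.38 (SE), with a 95% interval of -0.72 to 1.13, so a doubling in knockout libraries was within the interval. The mean Hspa5 level was 42298 ± 2480 over wild type and 40360 ± 5180 over knockout libraries. Its log2 difference was -0.07 ± 0.18 (SE), with an interval of -0.51 to 0.36, so the data were more precise for Hspa5 than for Atf4. The wide intervals of the ATF4 targets, such as -1.84 to 1.91 for Trib3, covered differences in both directions. Cebpb had the largest positive difference after Fgf21, at 0.53 ± 0.53 (SE), and Vldlr was next at 0.46 ± 0.47. Leaving out 1 library in turn, the Vldlr value ran from 0.04 (without wild type 1) to 0.87 (without wild type 2) and that of Cebpb from -0.20 to 1.27 for the same 2 libraries. Pdia5 had the most negative, at -0.71 ± 0.50, with an interval of -1.93 to 0.51. That value was -0.08 without wild type 1, -1.33 without wild type 2 and -1.01 without knockout 1.

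With the library set entered as a term, the intervals narrowed and the medians of both arms shifted. The median difference was 0.00 over the endoplasmic reticulum arm and -0.13 over the ATF4 arm, beside -0.00 over all genes. In that fit 16 of the 19 ATF4 arm genes had a difference below 0, all but Eif2ak3, Vldlr and Cebpb, against 50.7% of all genes tested. In the endoplasmic reticulum arm 9 of 18 genes were below 0. Between the fits 21 of the 37 members changed sign. limma again called 0 members, with 0.00657% of genes called, and edgeR called 0, with 0.0131% called. At an unadjusted p under 0.05 limma took 3 of 37 members, Dnajb9, Pdia5 and Trib3, against 3.51% of all genes.

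Pdia5 was the one member called in any fit. With the library set as a term its log2 difference was -0.40 ± 0.06 (SE) by limma, with a 95% interval of -0.56 to -0.24. DESeq2 with the same term gave an adjusted p of 0.000262, edgeR gave 0.909 and limma 0.999. DESeq2 called 0.328% of all genes in this fit, and 0.256% as lower. At an unadjusted p under 0.05 DESeq2 took the same 3 members as limma, against 3.66% of all genes. The call was lost when any single library was left out, with DESeq2 adjusted p-values of 0.0633 (without knockout 4) to 1.00 and log2 differences of -0.40 to -0.39. Within sets the Pdia5 difference was -0.41 in knockout 1 against wild type 1, and -0.37, -0.39 and -0.42 in knockout 2, 3 and 4 against wild type 2. The last 3 differences share wild type 2.

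Trib3 was the ATF4 arm gene with the lowest unadjusted p with the library set as a term, at a log2 difference of -0.44 ± 0.11 (SE), and an adjusted p of 0.301 by DESeq2. It was lower in each of 4 knockout libraries than in the wild type of its set. The same held for Chac1, Ppp1r15a, Phgdh, Slc7a5, Ddit4 and Nupr1, which made 7 of 19 ATF4 arm genes, against 10.8% of all genes. This counts signs, and sizes varied. Slc7a5 differed by -0.77 (log2) in knockout 1 but by -0.021 in knockout 4, and Ddit4 by -0.013 and -0.0019 in knockout 2 and 3. The comparisons of knockout 2, 3 and 4 share wild type 2. Dnajb9 had the opposite pattern, higher in all 4, as 1 of 18 endoplasmic reticulum arm genes against 10.1% of all genes. Its log2 difference was 0.22 ± 0.08 (SE) with the term and 0.16 ± 0.15 without it. For Ern1 these values were 0.17 ± 0.11 and 0.21 ± 0.13, and for Xbp1 0.02 ± 0.11 and 0.13 ± 0.22. Eif2ak3 moved from -0.17 ± 0.31 without the term to 0.02 ± 0.07 with it, Atf4 from 0.20 to -0.02 ± 0.07, and Ddit3 from 0.04 ± 0.23 to -0.09 ± 0.09.

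**Figure D4:**
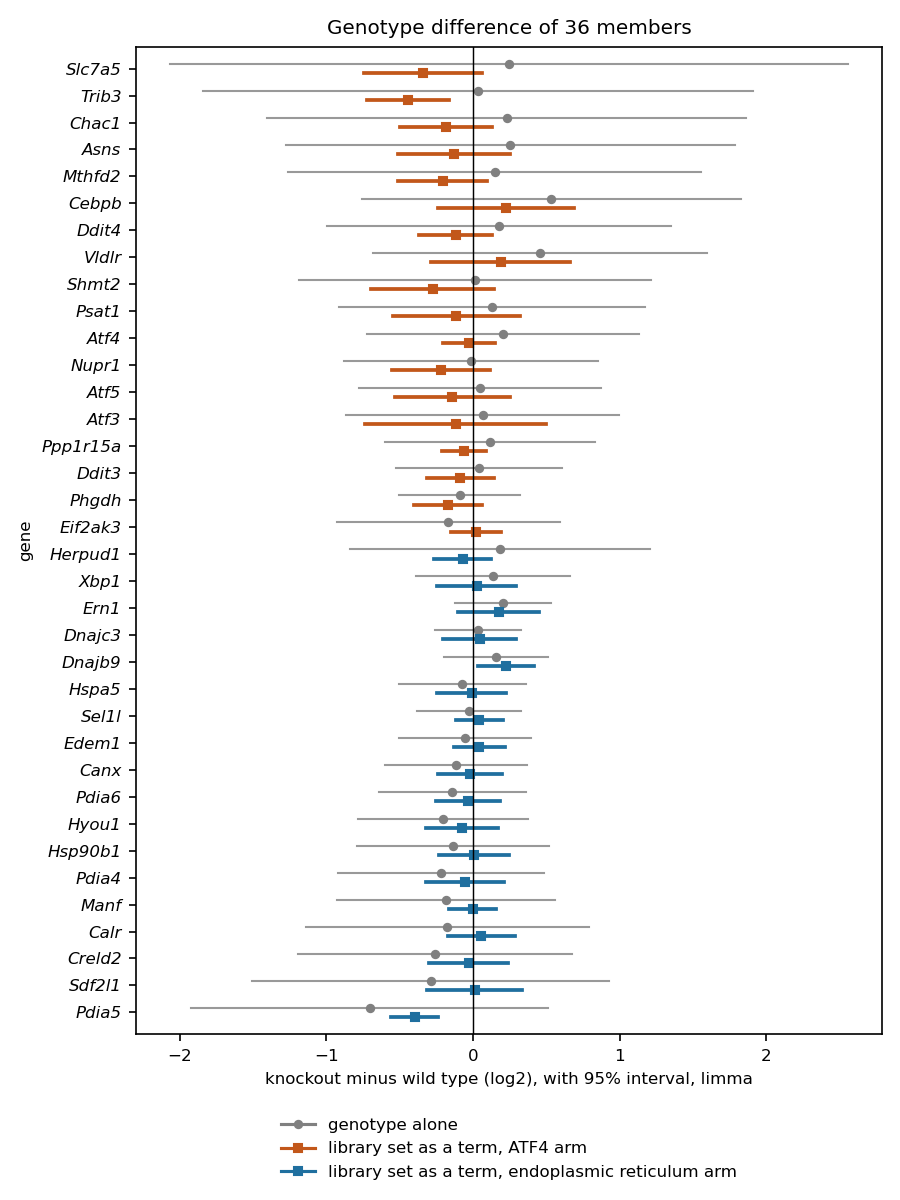
Points show the log2 difference, knockout minus wild type, of 36 members with 95% intervals from limma, from the fit of genotype alone (grey) and from that which adds the library set (coloured); Fgf21, with a count of 0 in wild type 1, is not drawn. Intervals are narrower with the term, as for Atf4 and Trib3, and that of Pdia5 then runs from -0.56 to -0.24.

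Knockout 1 alone was below wild type 1 for 16 of the 19 ATF4 arm genes, against 53.6% of all genes, and above it for 15 of the 18 endoplasmic reticulum arm genes, against 46.3%. Its median log2 difference from wild type 1 was -0.16 over the ATF4 arm and 0.05 over the endoplasmic reticulum arm, beside -0.02 over all genes. In knockout 2, 3 and 4 against wild type 2 the medians were -0.03, -0.01 and -0.04 over the ATF4 arm and -0.08, -0.03 and -0.03 over the endoplasmic reticulum arm. All 3 of these libraries were below wild type 2 for 9 of 19 ATF4 arm genes and 6 of 18 endoplasmic reticulum arm genes, against 19.8% of all genes. These libraries share wild type 2, so the 3 sets of values are not independent. They were above it for 3 and 2 genes, against 20.7%.

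The rest of the 2 pathways was read from 120 further genes with a tested value. By limma, 0 of the 120 were called higher and 0 lower, where 0.00657% of all genes tested were called. At an unadjusted p under 0.05 limma took 0 of them, against 0.939% of all genes. By edgeR and by DESeq2, 0 were called, against 0.00657% and 0.046% of all genes. Of all genes tested, 30.7% were higher in both wild type 1 and knockout 1 than in the other 4 libraries and 32.7% were lower. Over 16 degradation genes, 11 were higher and 0 were lower, with a median log2 difference of -0.24 from wild type 1 to 2. Over 19 folding genes, 13 were higher and 0 lower, with a median of -0.23. Over 21 genes of import into and export from the endoplasmic reticulum, 17 were higher and 0 lower, with a median of -0.41. In all 3 lists most genes thus had the split that 13 of the 18 endoplasmic reticulum arm genes had. Fkbp14, a folding catalyst for collagens, was counted at 3125 and 998 in wild type 1 and 2 and at 3180, 969, 1029 and 1080 in knockout 1 to 4. Kdelr3, a receptor that returns luminal proteins, had 5113 and 2324, and 4460, 1980, 2318 and 2215.

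Most genes on the ATF4 side had the reverse split, beside 32.7% of all genes tested that were lower in the pair and 30.7% higher. Of 13 tRNA charging and export genes, 12 were lower in both wild type 1 and knockout 1 and 0 higher, with a median of 0.42 (log2) from wild type 1 to 2. Of 18 genes of amino acid supply, 15 were lower and 0 higher, with a median of 0.96. Of 18 further stress targets, 12 were lower and 3 higher, with a median of 0.52. Most genes of these 3 lists thus had the split of Atf4 in the ATF4 arm. Cth, an enzyme of cysteine synthesis, was counted at 691 and 4134 in wild type 1 and 2 and at 580, 4096, 4090 and 4238 in knockout 1 to 4. Slc6a9, a glycine transporter, had 598 and 3264, and 623, 3196, 3016 and 3127. Stc2, a secreted stress glycoprotein, had 431 and 2626, and 494, 3575, 3376 and 2635. The death-related targets of this list were divided. Pmaip1 had 2606 and 824, and 2180, 577, 1037 and 947, and Tnfrsf10b was likewise high in wild type 1 and knockout 1. Bcl2l11 had 942 and 1782, and 854, 1876, 1897 and 1631, and Bbc3 was likewise low in that pair. Bcl2l11 and Bbc3 are named after their values were seen.

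The other regulators did not follow either arm as a group. Atf6, the remaining sensor, was counted at 4708 and 5475 in wild type 1 and 2 and at 4595, 6375, 5592 and 5184 in knockout 1 to 4. Creb3l1, a related membrane-bound factor, had 3695 and 3937, and 3960, 3616, 4829 and 3761. Of 7 regulators tested, 2 were higher and 2 lower in both wild type 1 and knockout 1, and Ern2 was at 0 in all libraries. Among the eIF2 kinases, Eif2ak4, which encodes the amino acid sensor GCN2, had 1591 and 1388, and 1543, 1507, 1476 and 1342. Eif2ak2, the double-stranded RNA sensor PKR, had 2731 and 1979, and 3946, 1517, 2405 and 2149. Of 8 genes that act on or form eIF2, 5 were higher and 1 lower in both libraries, the lower one being the phosphatase subunit gene Ppp1r15b. Of all genes tested, 30.7% were higher and 32.7% lower in both.

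**Figure D5:**
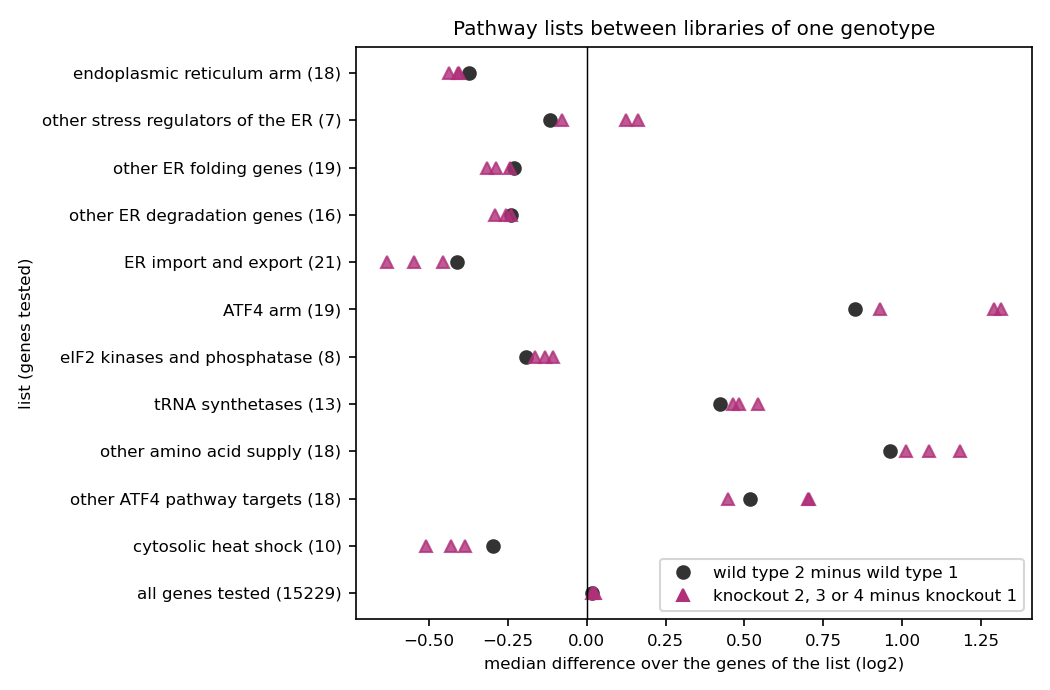
Each row is a list of pathway genes with the number tested, and points show its median log2 difference from wild type 1 to 2 (circle) and from knockout 1 to each of knockout 2, 3 and 4 (triangles); ER stands for endoplasmic reticulum. The ATF4 arm (0.85 in wild type, 0.93 to 1.31 in knockout libraries) lies to the right of 0 and the endoplasmic reticulum arm (-0.37, and -0.43 to -0.41) to the left.

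Summed macrophage markers were high in the same 4 libraries as the ATF4 arm. Summed endothelial, smooth muscle and mesothelial markers were high in the same pair as the chaperones. All 10 macrophage markers were lower in both wild type 1 and knockout 1 than elsewhere, against 32.7% of all genes tested. In that pair 7 of 10 endothelial markers were higher, against 30.7% of all genes. So were 4 of 7 smooth muscle and 4 of 6 mesothelial markers, and the rest of these 2 lists were not. Of the fibroblast markers, 5 of 8 were lower in that pair and 1 was higher. By genotype, all 10 endothelial markers were lower on average in knockout libraries, with log2 differences of -1.20 to -0.40. At an adjusted p under 0.05 limma called 0 of them. Their median was -0.75, and -0.47 once the fit held the library set. Within sets the median was -0.73 in knockout 1 against wild type 1. In knockout 2, 3 and 4, all against wild type 2, it was -0.05, -0.33 and -0.74. The part of cell makeup in the 2 arms, and in their genotype differences, was not tested.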

How the data were processed

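RNA of 2 wild type and 4 knockout primary endothelial cultures was sequenced as single-end reads of 100 nt after poly(A) selection, per the labels and the series design text. In the deposited table, the authors give each gene a normalized count signal, that is, reads over a factor that differs between libraries. The submitters' processing notes list Trimmomatic 0.36, STAR 2.6.0c, featureCounts in Subread 1.6.1 and the build GRCm38.p6. In the series design text, the list is Trimmomatic 0.32, STAR 2.4.2a, HTSeq, GENCODE M17 and DESeq2 1.10.1. The sources used here do not say which list applies to the deposited values.

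Whole reads were recovered for 100% of values within 1e-06 of a read. The main test was limma 3.58.1 (R 4.3.3, eBayes with trend) on log2(normalized count + 1) over genes with a mean of at least 10, with Benjamini-Hochberg adjustment over 15229 genes and a threshold of 0.05. edgeR 4.0.16 and DESeq2 1.42.0 on the recovered reads, TMM scaling, other pseudocounts and filters, no trend, the title number as a block, the library set as a term, the set of 4 libraries alone, and each library left out were alternatives. Unadjusted p counts and the leave-outs of the Pdia5 call were added after the data were seen. Each script that tests genes was checked on simulated counts. No libraries of a genotype agreed within sampling noise (chi-square per gene 26.2 to 397).

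Members, lists and the library set were chosen with earlier results of these data known. All members were to be named, with regulators, the most abundant genes and the largest differences given per library, and marker lists as sums, of which 1 is not reported here. Exon lengths and overlaps came from GENCODE M21 (GRCm38). Near-identical copies were sought with blastn 2.17.0 at 95% identity over at least 200 nt. Promoter sequence came from RefSeq (GRCm38.p6).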

Additional observations from a re-analysis of the deposited data

Results flagged for a closer look

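In 14 of the 37 members, 1 of the 4 knockout libraries lay far from the other 3 by Dixon's ratio, which divides the gap to the nearest library by the range and was compared with its 95% critical value. The library was knockout 1 in all 14. It was the lowest library for Herpud1 (ratio 0.843), Atf4 (0.889), Trib3 (0.84), Ppp1r15a (0.904), Phgdh (0.891) and Slc7a5 (0.949). It was the highest for Dnajb9 (0.928), Sdf2l1 (0.83), Pdia5 (0.976), Pdia6 (0.855), Manf (0.899), Creld2 (0.928), Calr (0.865) and Eif2ak3 (0.93). Knockout 1 is the only knockout library of its set, so these flags are not separate from the split between the sets. In all of these genes but Dnajb9, wild type 1 also lay beyond the other 4 libraries on the same side. Chance flags about 1 in 20 groups. Of all 15229 genes tested, 2104 (13.8%) were flagged by the same ratio.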

How the results depend on the processing

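The sign of the genotype difference was kept for all 37 members under both other pseudocounts, both other filters, no trend and TMM scaling, and changed for 1 by edgeR and 1 by DESeq2. It changed for 21 with the library set as a term, 18 in the set of 4 libraries alone (without wild type 1 and knockout 1) and 29 without wild type 1. With the term, log2 differences turned by limma, edgeR and DESeq2 for Ddit3 (-0.0876, -0.0809 and -0.0879), Atf4 (-0.025, -0.0181 and -0.024), Trib3 (-0.444, -0.435 and -0.44) and Eif2ak3 (0.0176, 0.0245 and 0.0176). In the set of 4 alone they were -0.17 for Ddit3, -0.29 for Trib3 and 0.0356 for Eif2ak3. Leaving out each library gave -0.10 to 0.37 for Xbp1, -0.28 to 0.36 for Ddit3, -0.22 to 0.63 for Atf4, -0.81 to 0.87 for Trib3, -0.55 to 0.22 for Eif2ak3 and -0.20 to 1.27 for Cebpb, and the value beyond 0 came without wild type 1 in each, for Trib3 also without knockout 2, 3 or 4, and for Ddit3 without knockout 4. The cause was not tested.

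Of all genes, limma called 1 higher and 0 lower. The higher count was 0 in the set of 4 alone, 5 by DESeq2, 11 by DESeq2 with the term and 0 to 1 on leaving out each library. The lower count was 1 with pseudocount 5, 2 by DESeq2, 1 by edgeR with the term, 39 by DESeq2 with the term and 0 to 1 on leaving out each library. DESeq2 with the term called 1 endoplasmic reticulum arm gene. Leaving out each library from that fit gave Pdia5 -0.40 to -0.39.

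With the title number as a replicate block, 20 members changed sign, with Ddit3 at -0.10, Atf4 at -0.0085, Trib3 at -0.49 and Eif2ak3 at 0.0186, and 0 genes were called higher. Deviations from group means correlated at 0.841 for libraries numbered 1 and 0.562 for those numbered 2, but wild type 2 correlated at 0.668 with knockout 3 and 0.530 with knockout 4. With 2 wild type libraries, the deviations of wild type 1 and 2 differ only in sign, so these values are not separate checks of pairing. The labels do not say that a number pairs libraries, and knockout 3 and 4 add nothing to the difference in that fit. Having 2 wild type libraries limits every genotype value given here. The libraries with 0 and 1 Fgf21 read, wild type 1 and knockout 1, were deeper than wild type 2.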

Other observations

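Stress responses outside the reticulum were not alike in these libraries. Of 10 cytosolic heat shock genes, 6 were higher in both wild type 1 and knockout 1 than in the other 4 libraries, against 30.7% of all genes. In the same list 1, Hsph1, was lower, against 32.7%. The median log2 difference was -0.30 from wild type 1 to wild type 2 and -0.36 from knockout 1 to the other knockout libraries. Hspa4l, a cytosolic chaperone gene, was counted at 3332 and 2218 in wild type 1 and 2 and at 3423, 1473, 1500.4 and 1823 in knockout 1 to 4.

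Of 10 immediate early genes, 5 were lower in wild type 1 and knockout 1 and 2 were higher, against 32.7% and 30.7% of all genes. The median was 0.05 from wild type 1 to 2 and 0.80 from knockout 1 to the other knockout libraries. Fos, an early transcription factor gene, was counted at 621 and 1967 in wild type 1 and 2 and at 871, 4835, 3356 and 1805 in knockout 1 to 4. Egr1, another, was counted at 2343 and 5050 in wild type 1 and 2 and at 1777, 9583, 8352 and 5813 in knockout 1 to 4, so both genes were highest in knockout 2 and 3. By limma, 0 genes of these lists were called for genotype, against 0.00657% of all genes. At an unadjusted p under 0.05 limma took 0, against 0.939%. edgeR and DESeq2 called 0, against 0.00657% and 0.046%.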
